A study of Mus musculus with 12 samples.

Results

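A set of 10 markers of the mural cells that wrap brain vessels were followed through white matter of mice on a control-fat diet (CFD) or a high-fat diet (HFD). Pdgfrb, Rgs5, Acta2, Tagln, Myh11, Kcnj8, Abcc9, Notch3, Higd1b and Igf2 were taken by gene symbol, and all 10 were among the 24060 genes of the count table. All 6 animals were male and carried Tie2-Cre:Rpl22-HA, so that cells in which the Tie2 promoter had switched on Cre recombinase made ribosomes with an HA tag on the protein Rpl22. The diets supplied 10% (CFD) or 60% (HFD) of calories from fat, and each diet had 3 animals, numbered 489, 555 and 556 (CFD) and 516, 517 and 676 (HFD). From the white matter of each animal, total RNA (input) and RNA bound to immunoprecipitated tagged ribosomes (IP) were sequenced separately, giving 12 libraries. Every animal carried the transgenes, so no library measures what the antibody recovers from tissue without tagged ribosomes. Tie2 is an endothelial receptor whose promoter is also active in part of the blood lineage, and mural cells are not the cells it is used to tag.

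Pericytes sit on capillaries and smooth muscle cells ring arterioles, and both share the basement membrane of the endothelium. Endothelial cells attract and keep pericytes with the growth factor PDGF-B, which acts on the receptor encoded by Pdgfrb, while Notch3 is the Notch receptor that maintains arterial smooth muscle and is mutated in an inherited small vessel disease of white matter. Rgs5 shortens G protein signals, Acta2, Tagln and Myh11 encode parts of the contractile apparatus, Kcnj8 and Abcc9 encode the pore and the regulatory subunit of a vascular ATP-sensitive potassium channel, and Higd1b is used as a pericyte marker. Igf2 encodes a secreted growth factor that is made by the leptomeninges and the choroid plexus as well as around vessels.

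Totals ran from 19567186 to 33660708 counts per library. The summed level of 12 endothelial markers ran from 4.45 to 308 CPM (counts scaled to 1000000 per library) in the CFD IP libraries, from 12.9 to 73.7 CPM in HFD IP, from 17.4 to 19.7 CPM in CFD input and from 15.1 to 45.1 CPM in HFD input, so the ranges of IP and input overlapped in both diets. Tek, which encodes Tie2 itself, had 0, 0 and 80 counts in CFD IP and 0, 1 and 43 counts in HFD IP, and the tight junction gene Cldn5 was at 0 in 2 of 3 IP libraries of each diet. Other endothelial markers were higher, such as Egfl7 with 37, 25 and 3650 counts in CFD IP. Of the 11 tested, 7 had a log2 fold change of IP over input above 0 in CFD (median 3.18) and 5 in HFD (median -0.36). The median over all genes was -0.01 in each. None of the 11 passed an adjusted p of 0.1 in edgeR, as 0.188% of all genes did in CFD and 0.0139% in HFD. The 6 neuronal markers summed to between 4916 and 9783 CPM in the IP libraries. In bulk tissue, fewer cells of a type and less RNA per cell cannot be told apart, and this holds for every value here. The 45S ribosomal RNA precursor Rn45s took 38.7% to 42.3% of CFD IP counts, 17.1% to 19.1% of HFD IP counts and 6.34% to 14.2% of input counts.

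The 250 bases before an annotated transcription start were examined for 6 of the 10 genes, in 9 RefSeq windows of GRCm38.p6. Sequences of Tagln, Myh11, Higd1b and Pdgfrb are not shown. They were searched on both strands for the CArG box bound by serum response factor, for TGGGAA, the core bound by the Notch partner RBPJ, and for TATAAA. A CArG box was counted only in its strict form, with adenine or thymine at all 6 middle bases. This form was found in 1.47% of all 32851 windows of this length. It was found in 1 of the 9 windows, ahead of one of the 4 annotated starts of Igf2. The Acta2 window holds 2 near matches, each with 1 guanine or cytosine among the middle bases, which were not counted. TGGGAA was found in 21.6% of all windows. It lay in the window of Acta2, where it started 27 bases before the start site of that window, and in the window of Abcc9. It also lay ahead of 2 of the 4 starts of Igf2, and was absent from the windows of Rgs5, Kcnj8 and Notch3. The start sites of the Acta2 and Abcc9 windows lie inside the gene spans given below. The copies in these windows therefore fall within those spans and not ahead of them. TATAAA, present in 12.4% of all windows, was found in none of the 9. Shown here are the window of Rgs5, the gene whose levels separated the diets in both fractions, at chr1:169655251-169655500 on the plus strand, and the Igf2 window that held a CArG box, at chr7:142661272-142661521 on the minus strand. Neither window overlaps an annotated RefSeq exon.
Rgs5: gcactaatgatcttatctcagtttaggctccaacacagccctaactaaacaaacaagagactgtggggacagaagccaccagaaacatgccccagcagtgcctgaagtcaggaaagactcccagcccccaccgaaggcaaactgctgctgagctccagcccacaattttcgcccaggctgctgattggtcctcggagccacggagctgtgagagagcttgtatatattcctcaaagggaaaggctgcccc
Igf2: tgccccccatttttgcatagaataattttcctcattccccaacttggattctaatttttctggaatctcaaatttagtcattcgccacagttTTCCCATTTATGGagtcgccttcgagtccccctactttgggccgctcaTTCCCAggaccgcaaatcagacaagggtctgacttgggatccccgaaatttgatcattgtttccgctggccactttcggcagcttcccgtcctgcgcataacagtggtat
In the Igf2 window the first run of capitals holds the CArG box, which starts 155 bases before the start site, joined to an overlapping copy of TGGGAA read on the opposite strand, and the second run is another such copy. A match of letters describes the window and is not a measured binding site.

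The 10 genes spanned a wide range of levels, and most of them were barely detected. Per kilobase of gene length and averaged over the 12 libraries, Igf2 stood at 16.4 CPM per kilobase and Rgs5 at 3.88, followed by Pdgfrb at 0.690, Notch3 at 0.613, Tagln at 0.501, Higd1b at 0.315, Acta2 at 0.287, Abcc9 at 0.184, Myh11 at 0.0927 and Kcnj8 at 0.00401. By this measure Igf2 ranked 3386 and Rgs5 8531 of 24060 genes, and the other 8 genes ranked from 12716 (Pdgfrb) to 17788 (Kcnj8). Of 120 values, 39 were 0 counts, 23 of 60 in IP and 16 of 60 in input. Pdgfrb, Rgs5 and Igf2 had counts in all 12 libraries, whereas Kcnj8 and Higd1b were at 0 in 10 of 12. Enough counts for a test were present for 7 genes, while Tagln, Kcnj8 and Higd1b did not pass the filter on low counts. Levels below are CPM as mean ± SD of 3 animals.

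**Figure D1:**
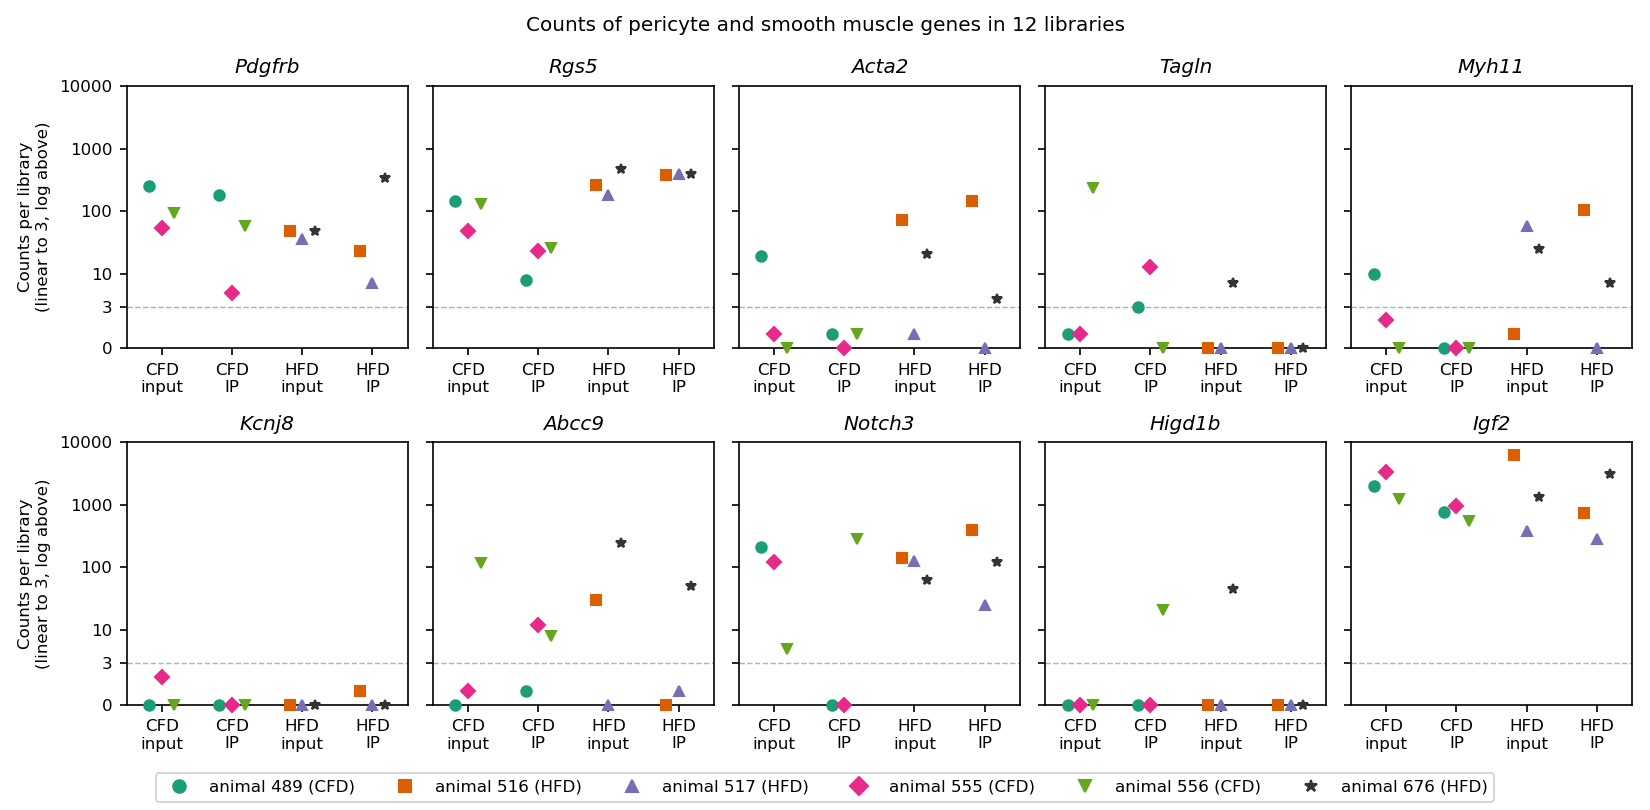
Counts of each gene in every library (vertical axis, linear up to 3 counts and logarithmic above), with libraries placed by diet and fraction on the horizontal axis and 1 symbol per animal. The dashed line marks 3 counts. Rgs5 in HFD IP lies in a narrow band from 381 to 396 counts, while most other genes scatter widely within a group.

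Between IP and input, the mural genes lay on no common side. Pdgfrb, Rgs5, Acta2, Abcc9, Notch3 and Igf2 had a ratio of IP to input in all 6 animals, and none of these 6 genes lay on the same side of 0 in all of them. Over the 14354 genes tested, 4.09% were higher in IP in every animal and 4.15% lower, so that a count of 0 is near the background. In edgeR's quasi-likelihood test, none of the 7 tested genes passed an adjusted p of 0.1 between IP and input in CFD, where 0.188% of all genes did, nor in HFD, where 0.0139% did. The count at an unadjusted p under 0.05 was also 0 of 7 in each, where 11.8% of all genes in CFD and 6.51% in HFD had one. DESeq2 called 0 of 7 in each, and 6.38% and 0.725% of all genes. The median log2 fold change of the 7 genes was -1.97 in CFD, against -0.01 over all genes, and 0.34 in HFD, against -0.01 over all genes. The interaction of diet and fraction called 0% of all genes and 0 of the 7, with none at an unadjusted p under 0.05 (5.36% of all genes) and none called by DESeq2 (1.48% of all genes).

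**Figure D2:**
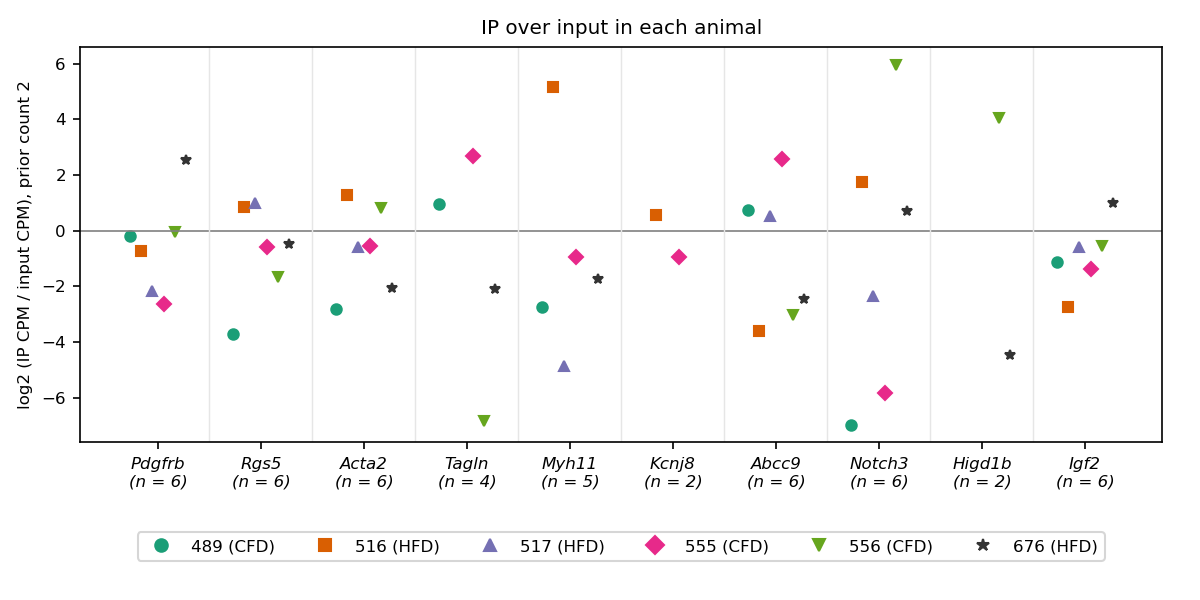
Log2 ratio of IP CPM to input CPM (vertical axis, prior count 2) for each gene, with 1 symbol per animal and n the number of animals with a count in either library. Igf2 and Pdgfrb lie below 0 in 5 of 6 animals, and Notch3 runs from -6.96 to 5.95.

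Rgs5 was the gene whose IP libraries did not overlap between the diets. Between HFD IP and CFD IP, none of the 7 tested genes passed the adjusted threshold in edgeR, where 0.0557% of all genes did. An unadjusted p under 0.05 was found for 2 genes, Rgs5 and Myh11, and for 10.9% of all genes. DESeq2 called 1 of the 7, Rgs5, and 6.07% of all genes, so neither count stands far from the background. Between HFD input and CFD input, 0% of all genes and 0 of the 7 passed, with 0 at an unadjusted p under 0.05 (2.03% of all genes) and 0 called by DESeq2 (0.383% of all genes). The median log2 fold change of the 7 genes was 0.52 in IP, against 0.03 over all genes, and 1.15 in input, against -0.00 over all genes. The HFD libraries are shared between the comparisons with diet and with fraction, as are the CFD libraries, so these medians are not independent of each other.

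**Figure D3:**
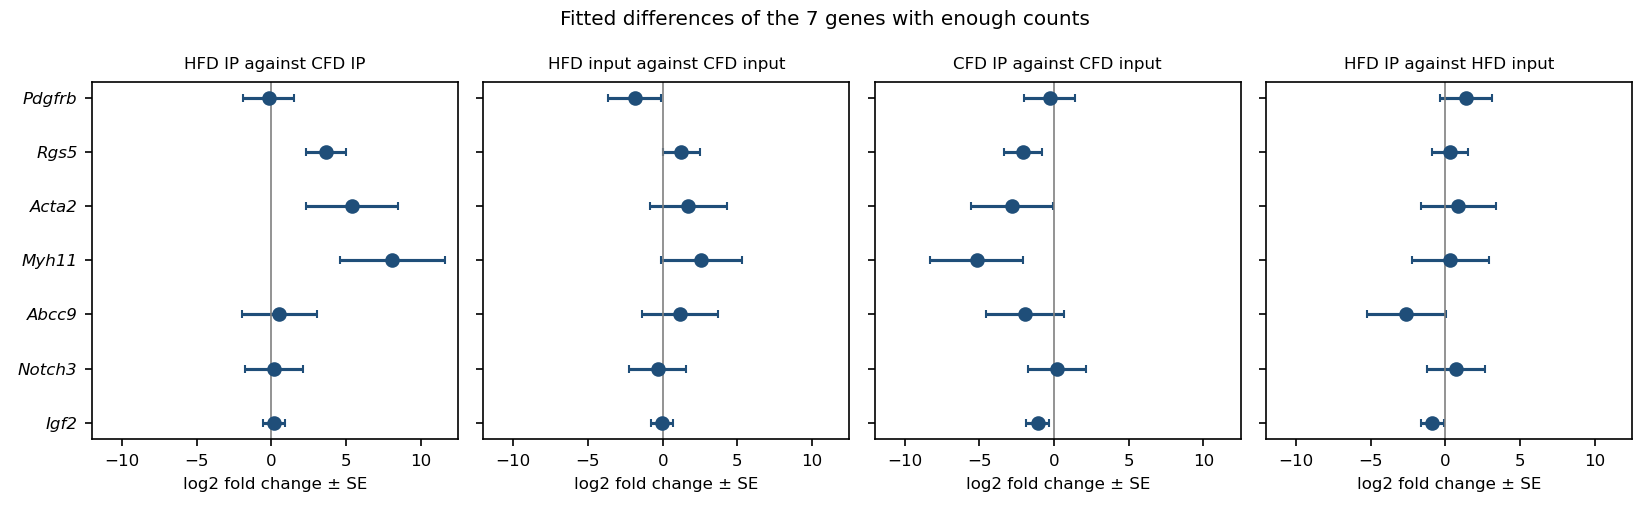
Fitted log2 fold changes (horizontal axis) with SE bars for the 7 tested genes in 4 comparisons, 3 animals per group. Rgs5, Acta2 and Myh11 have the highest values between the IP libraries of the diets (3.67, 5.41 and 8.09), with SEs of 1.34, 3.07 and 3.53.

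Pdgfrb, the receptor by which pericytes sense PDGF-B, lies on chromosome 18 (61045127 to 61085067, GRCm38). It had 250, 53 and 93 counts in CFD input and 183, 5 and 59 counts in CFD IP of animals 489, 555 and 556. In HFD it had 49, 36 and 48 counts in input and 23, 7 and 341 counts in IP of animals 516, 517 and 676. The HFD inputs were close together and all lay under the CFD inputs, a separation that 4.33% of all genes showed in this direction. The level was 1.46 ± 0.217 CPM in HFD input and 5.33 ± 4.74 CPM in CFD input, and the log2 fold change of -1.87 (SE 1.77) did not pass the test (edgeR adjusted p = 0.99997). Animal 489 held 67.1% of the CFD input level. The summed level of 7 perivascular fibroblast markers separated the same inputs in the same direction, at 28.8 to 61.9 CPM in CFD and 10.6 to 24.7 CPM in HFD. No marker was at 0 in all 3 libraries of a group. Dcn separated them too, at 18.9 to 25.6 CPM in CFD and 1.53 to 12.3 CPM in HFD. Of the 7 markers, 1 had a log2 fold change above 0 between these inputs, Lum at 1.44. Those of Col3a1 and Col1a2 were -1.92 (SE 2.49) and -0.94 (SE 1.59). Those of Col1a1, Slc6a13 and Islr were -0.19, -0.04 and -0.01, and Col1a1 was highest in HFD input of animal 516 (6.90 CPM). None of the 7 passed in edgeR, where 0% of all genes did. Over the 12 libraries, which share animals, Pearson's r between the log2 levels of Pdgfrb and the fibroblast sum was 0.73 and Spearman's rho was 0.84. The part of these cells in the Pdgfrb level was not tested. In IP the order of the diets was not resolved, since CFD IP (4.34 ± 4.70 CPM) and HFD IP (3.81 ± 5.71 CPM) overlapped and animal 676 alone held 91.0% of the HFD level. The log2 IP over input ratio lay below 0 in 5 animals, from -2.62 to -0.04, and was 2.56 in animal 676.

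Its ligand Pdgfb, made by endothelial cells, had 644, 4 and 216 counts in CFD IP and 6, 250 and 457 counts in HFD IP, a scatter as wide as that of the receptor. Another ligand of the same receptor, Pdgfd, was at 0 in all CFD IP libraries and reached 10 counts in 1 HFD IP library. Neither the ligands nor the receptor passed a test between diets or fractions.

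Rgs5 lies on chromosome 1 (169655501 to 169695813). Its counts were 146, 48 and 132 in CFD input and 8, 23 and 26 in CFD IP, and 264, 182 and 464 in HFD input and 381, 396 and 388 in HFD IP. The 3 HFD IP libraries agreed closely and all stood above all other groups' libraries in counts except HFD input of animal 676. In CPM, the order from low to high was CFD IP (0.994 ± 0.532), CFD input (4.26 ± 2.34), HFD input (10.1 ± 5.51) and HFD IP (12.7 ± 0.766), and only the last pair of neighbors in this order overlapped.

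Between the IP libraries, Rgs5 was higher in HFD by a log2 fold change of 3.67 (SE 1.34, unadjusted p = 0.0122, edgeR adjusted p = 0.363), and 5.94% of all genes separated the diets in this direction. The result turned on the tool, since DESeq2 gave a log2 fold change of 3.65 with an adjusted p of 0.00650. In edgeR the log2 fold change stayed between 3.28 and 4.05 when each animal was left out, with an adjusted p from 0.348 to 0.569. Between the inputs the log2 fold change was 1.25 (SE 1.22, edgeR adjusted p = 0.99997), with no overlap of the diets, as in 6.05% of all genes. Both separations together, higher in HFD in IP and in input, were found in 0.502% of all genes.

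Relative to input, Rgs5 was lower in IP in all CFD animals, with log2 ratios of -3.70, -0.58 and -1.67, and was not on one side in HFD, with 0.84, 0.98 and -0.48. The CFD IP libraries lay under all CFD inputs, as did 8.72% of all genes, and the log2 fold change of -2.09 (SE 1.26) did not pass the test (edgeR adjusted p = 0.517). The difference between the diets in this ratio was 2.42 (SE 1.73) on the log2 scale and did not pass the interaction test either (edgeR adjusted p = 0.903). The Rn45s share also separated the IP libraries of the diets, in the direction opposite to Rgs5, with the higher shares in CFD. The endothelial sum overlapped between the diets in IP, at 14.3, 4.45 and 308 CPM in CFD and 73.7, 28.2 and 12.9 CPM in HFD. The part of the Rn45s share and of the endothelial yield in the result was not tested.

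Notch3, on chromosome 17 (32120820 to 32166896), had the widest spread of IP over input ratios among the tested genes, with an SD of 4.89 on the log2 scale over the 6 animals. In CFD it had 216, 120 and 5 counts in input and 0, 0 and 283 counts in IP. IP was thus at least 59.7-fold lower than input in animal 489 and at least 29.2-fold lower in animal 555, counting a value of 0 as 3 counts, and 87.0-fold higher in animal 556. In HFD it had 144, 126 and 63 counts in input and 392, 25 and 120 counts in IP. Group levels were 4.56 ± 4.55 CPM in CFD input, 5.29 ± 9.16 in CFD IP, 3.60 ± 1.21 in HFD input and 6.03 ± 6.71 in HFD IP, and no neighbors in that order differed beyond their spread. The fitted differences between diets were 0.19 (SE 1.93) in IP and -0.34 (SE 1.93) in input on the log2 scale.

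Among the Notch partners, the ligand Jag1 had 175, 22 and 29 counts in CFD IP and 208, 11 and 57 counts in HFD IP. Dll4, the Notch ligand of arterial and sprouting endothelium, reached 2 counts in 1 of 12 libraries. Rbpj, the DNA-binding partner of activated Notch, had 149, 310 and 159 counts in CFD IP and 513, 1051 and 1135 counts in HFD IP, with a log2 fold change of 1.46 (SE 0.69, edgeR adjusted p = 0.451). Hey1, a transcription factor induced by Notch, had 855, 5203 and 763 counts in CFD IP and 1341, 891 and 987 counts in HFD IP, with a log2 fold change of -1.67 (SE 0.62, edgeR adjusted p = 0.364). These values overlapped between the diets for Hey1 and not for Rbpj, and neither gene passed the test.

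The contractile genes were sparse, and in most groups with more than 3 counts a single library held most of the level. Acta2, which encodes smooth muscle α-actin (chromosome 19, 34240336 to 34255585), had 19, 1 and 0 counts in CFD input and 1, 0 and 1 counts in CFD IP. In HFD it had 72, 1 and 21 counts in input and 144, 0 and 4 counts in IP. Animal 516 therefore held 97.6% of the HFD IP level of 1.71 ± 2.85 CPM, and the diets overlapped. The log2 fold change between IP libraries was 5.41 (SE 3.07, edgeR adjusted p = 0.511), and 0.68 without animal 516.

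Myh11, the smooth muscle myosin heavy chain (chromosome 16, 14194527 to 14292188), had 10, 2 and 0 counts in CFD input and none in CFD IP. In HFD it had 1, 58 and 25 counts in input and 104, 0 and 7 counts in IP. The HFD IP level was at least 8.16-fold higher than that of CFD IP, taking 3 counts per library as the floor, and 94.4% of it came from animal 516. In edgeR the unadjusted p was 0.0327 and the adjusted p 0.408. The fitted log2 fold change, which depends on the prior count and is no bound, was 8.09 and fell to 4.50 without animal 516. Within animal 517 the opposite held for the fractions, with 58 counts in input and 0 in IP, at least a 21.2-fold difference.

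Tagln, which encodes the actin-binding protein transgelin (chromosome 9, 45929628 to 45936058), had 231 counts in CFD input of animal 556 and 1 in each of the other CFD inputs. It had 3, 13 and 0 counts in CFD IP, 0, 0 and 7 counts in HFD input and none in HFD IP. The IP of animal 556 was at least 50.1-fold lower than its input, although the same animal gave the highest CFD IP count of Notch3. A single library thus held 99.1% of the CFD input level, and without a filter on low counts edgeR gave an adjusted p of 0.510 between the IP libraries of the diets. Tagln overlaps Pcsk7 in the annotation, which had 18 counts in the input of animal 556 where Tagln had 231. Whether the counting used strand is not given in the sources used here.

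The widely expressed relatives of the contractile genes were counted in every library. Actb, the cytoplasmic actin, had 20041 to 41808 counts per library, and Myh9 and Myh10, the non-muscle myosins, had 429 to 3324 and 5290 to 16464 counts. In CFD, Myh10 lay above input in IP by a log2 fold change of 1.08 (SE 0.34, edgeR adjusted p = 0.262), and Myh9 in HFD by 1.23 (SE 0.52, edgeR adjusted p = 0.698). Acta1, another muscle actin, had 0 counts in CFD IP of animal 555 and 37 to 572 counts in every other library. Actc1 and Actg2, the cardiac and enteric actins, had counts in 1 library each, both of animal 676. Reads shared between such close copies could be split by the counting, so the low counts of Acta2 are uncertain to that extent.

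Both subunits of the vascular potassium channel were near the limit of detection. Kcnj8 (chromosome 6, 142564837 to 142571614) totaled 3 counts over all 12 libraries, 2 in CFD input of animal 555 and 1 in HFD IP of animal 516. Abcc9, which lies on the same chromosome and strand with 16247 bases between the spans of the 2 genes (142587862 to 142702766), had 0, 1 and 116 counts in CFD input and 1, 12 and 8 counts in CFD IP. In HFD it had 30, 0 and 244 counts in input and 0, 1 and 50 counts in IP. The animals split evenly in the ratio of IP to input, with log2 ratios of 0.76, 2.57 and -3.04 in CFD and -3.60, 0.53 and -2.45 in HFD. The 3 animals below 0 were those with 30 or more input counts. Group levels were 0.360 ± 0.275 CPM in CFD IP, 0.519 ± 0.870 in HFD IP, 1.42 ± 2.43 in CFD input and 3.17 ± 4.78 in HFD input, all of which overlapped. The subunits of the related channel of neurons and pancreatic beta cells were measured more evenly, with 27 to 1704 counts of Kcnj11 and 88 to 554 counts of Abcc8 per library.

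Higd1b, a mitochondrial membrane protein gene (chromosome 11, 102835761 to 102844141), was seen in 2 libraries only. It had 21 counts in CFD IP of animal 556, at least 10.8-fold above the input of that animal, and 45 counts in HFD input of animal 676, at least 17.5-fold above its IP. The gene overlaps Eftud2, a splicing factor gene with 567 to 2375 counts in every library. No fold change between groups rests on more than 1 library for Higd1b.

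Igf2 was the most abundant of the 10 genes. It lies on chromosome 7 (142650768 to 142666816) and overlaps Mir483 and Igf2os, which had 0 counts in all libraries and counts only in animal 676 (3 in input and 61 in IP), respectively. Igf2 had 1967, 3366 and 1235 counts in CFD input and 756, 950 and 552 counts in CFD IP. In HFD it had 6238, 385 and 1336 counts in input and 745, 280 and 3091 counts in IP. IP was lower than input in 5 of 6 animals, with log2 ratios of -1.11, -1.37 and -0.54 in CFD and -2.74, -0.59 and 0.99 in HFD. The levels were 82.7 ± 36.9 CPM in CFD input, 78.3 ± 84.1 in HFD input, 43.1 ± 45.0 in HFD IP and 38.7 ± 7.49 in CFD IP. The fractions differed by -1.10 (SE 0.75, edgeR adjusted p = 0.573) in CFD and -0.86 (SE 0.74, edgeR adjusted p = 0.934) in HFD on the log2 scale, and the diets by 0.16 (SE 0.74) in IP and -0.08 (SE 0.74) in input. The SEs of Igf2 were the smallest of the 7 tested genes.

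The 5 choroid plexus markers varied over the same libraries, and their sum ran from 107 to 1680 CPM. Both Igf2 and the choroid plexus sum were low in animal 517, at 13.9 and 141 CPM in input and 9.25 and 208 CPM in IP. They parted in HFD IP of animal 516, which had the highest choroid plexus sum, 1680 CPM, beside 25.8 CPM of Igf2. Ttr, the transthyretin gene that defines choroid plexus epithelium, had 1465 to 42320 counts per library. Over the 12 libraries, Pearson's r between the log2 levels of Igf2 and the choroid plexus sum was 0.63 and Spearman's rho was 0.57, where both fractions of an animal share their tissue. The r with 7 perivascular fibroblast markers was 0.44. For Acta2 the values of r with the same 2 sums were 0.62 and 0.22, and for Rgs5 0.22 and -0.18. The part of dissected choroid plexus or meninges in the Igf2 level was not tested.

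**Figure D4:**
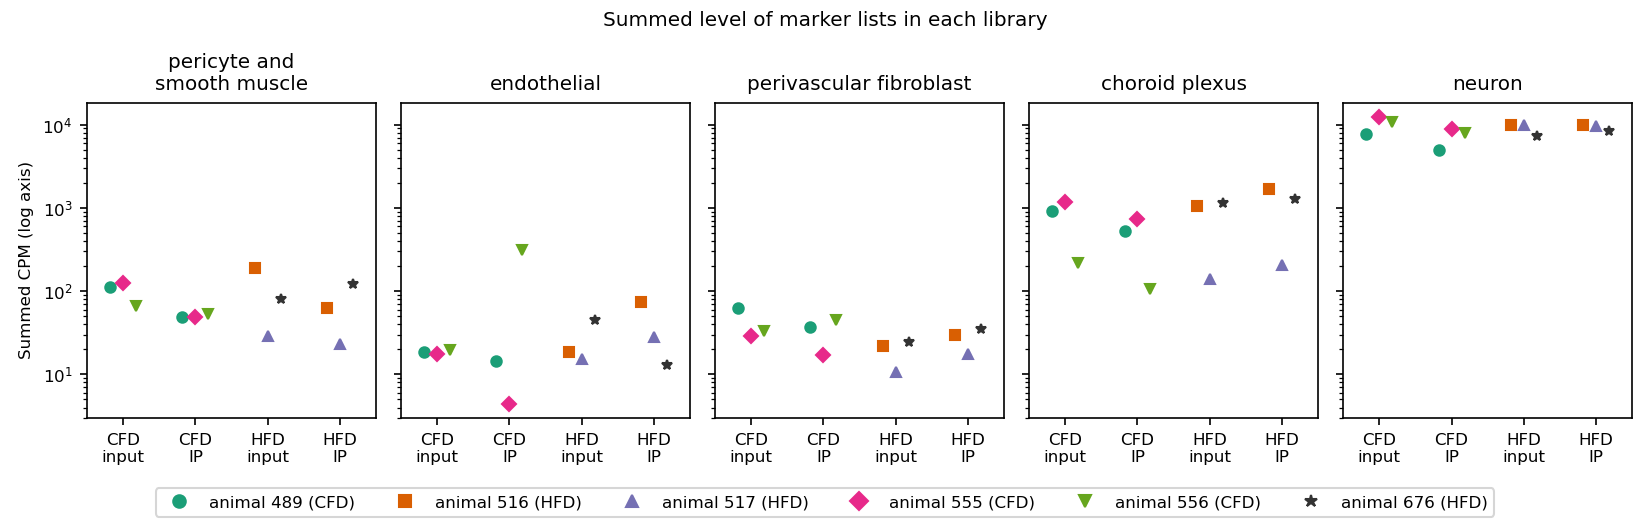
Summed CPM (logarithmic vertical axis) of the 10 mural genes and of 4 marker lists of other cells in each library, by diet and fraction, with 1 symbol per animal. The sum over the 10 genes, most of it Igf2, lies between 23.4 and 189 CPM, the endothelial sum spreads from 4.45 to 308 CPM within CFD IP alone, and neuronal sums lie between 4916 and 12305 CPM.

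For many of the genes a single library carried the level of its group. In HFD IP, 1 library held over 90% of the group's level for 4 of 7 tested genes (Pdgfrb, Acta2, Myh11 and Abcc9). The share was 14.4% of the 10613 genes with a mean level between 0.611 and 60.7 CPM, the range of the 7 genes. These 4 genes lay low in that range, at 3.73, 0.738, 0.611 and 1.37 CPM, so the share is not matched to their level. The counts were 2 of 7 in CFD input, against 9.42%, 1 of 6 in CFD IP, against 17.3%, and 1 of 7 in HFD input, against 3.77%. Rgs5 in HFD IP was at the other end, with 34.7% in its highest library. Loss of a gene in IP was not limited to mural genes. Among genes with at least 100 input counts, 2.18% (animal 489), 3.06% (555) and 3.58% (556) were at 0 in the IP of the same CFD animal. In HFD animals the share ran from 0.587% (676) to 5.41% (516). The mural cases were Notch3 in animals 489 and 555 and Tagln in animal 556, with 216, 120 and 231 input counts. They were 3 of the 10 mural inputs with at least 100 counts in CFD animals, and there was none among 9 in HFD animals. The shares over all genes are not matched to these input levels.

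**Figure D5:**
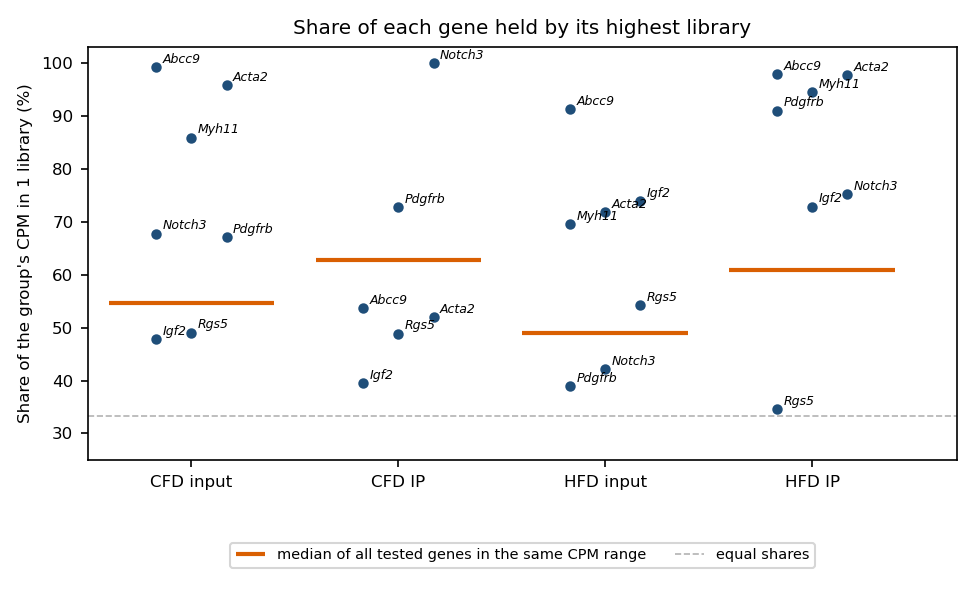
Share of a group's summed CPM that came from its highest library (vertical axis, percent) for each tested gene with counts in that group. Orange lines give the median of all tested genes with a mean between 0.611 and 60.7 CPM, not matched to each gene, and the dashed line an equal share of 3 libraries. In HFD IP, 4 genes lie above 90% and Rgs5 lies at 34.7%.

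The wider lists gave no calls in edgeR, which called from 0% to 0.188% of all genes per comparison, so a count of 0 is near the background. DESeq2 calls of these lists are not reported. Of 13 other pericyte genes, 9 were tested and none passed in either direction in any of the 5 comparisons. Their median log2 fold change between the IP libraries of the diets was -0.61, opposite in sign to the 0.52 of the 7 genes above. Between the inputs it was 0.84, on the same side as the 1.15 of those 7 genes. Of the 9, 8 were above 0 there, as were 49.7% of all genes. The pericyte gene Atp13a5, a cation transporter, had 0, 2 and 2 counts in CFD IP and 68, 3 and 51 counts in HFD IP (log2 fold change 4.18, SE 2.19, edgeR adjusted p = 0.488). Its inputs of 119, 10 and 14 counts in CFD and 134, 159 and 181 counts in HFD were less far apart. Vtn, which encodes vitronectin, had 189, 7 and 6 counts in CFD IP and 6, 136 and 329 counts in HFD IP, and Anpep, a pericyte peptidase, had 113, 0 and 1 against 1, 0 and 0.

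Of 12 other smooth muscle genes, 9 were tested and none passed in edgeR in any of the 5 comparisons, where at most 0.188% of all genes did. Their median was -1.16 between the IP libraries of the diets and 1.04 between the inputs, where 8 of the 9 were above 0. Single libraries carried these genes as well. Myl9, a myosin light chain, had 365 counts in CFD IP of animal 489 and 0 in the other CFD IP libraries, and Casq2, a calcium-binding protein gene, had 117 counts in HFD IP of animal 516 and none in CFD IP. Of 16 partners and regulators of the 10 genes, 14 were tested and none passed in edgeR, against the same share of all genes. Srf, the serum response factor gene that controls contractile genes, was higher in HFD IP (8128, 3402 and 1538 counts) than in HFD input (2072, 583 and 847 counts) by a log2 fold change of 2.02 (SE 0.63, edgeR adjusted p = 0.578). Igf1r, the receptor through which Igf2 signals, had 5977, 7244 and 4191 counts in HFD IP and 1997, 1364 and 3181 counts in HFD input (log2 fold change 1.40, SE 0.41, edgeR adjusted p = 0.532). Myocd, the smooth muscle cofactor of Srf, was at 0 in 7 of 12 libraries.

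Mural genes did not share one profile over the libraries. Over the 12 libraries, Pearson's r of the log2 levels was 0.58 between Acta2 and Myh11, 0.54 between each of these and Notch3, 0.57 between Rgs5 and Myh11, and -0.18 between Pdgfrb and Rgs5, where the points share animals and depth. The 5 genes with the profile most like that of Pdgfrb were Fbxo44 (r = 0.92), Smn1 (0.86), Pnma1 (0.86), Guk1 (0.85) and Slc25a34 (0.85), none of them from the mural lists. Among those most like Acta2 were Dnah8 (r = 0.91), Oscar (0.91) and 4930563E22Rik (0.90), of which Dnah8 and Oscar had their highest level in HFD IP of animal 516, as had Acta2.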

How the data were processed

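White matter RNA of 6 mice was sequenced as input and as HA immunoprecipitate, 12 libraries of 19567186 to 33660708 counts. Per the methods, the authors aligned reads with STAR to mm10, and the submitters' processing notes also name HTSeq. Versions and strand use are not given in the sources used here, and the kit differs between the labels (Nugen Ovation) and the methods (TruSeq with RiboZero). The deposited table holds raw counts, which were tested. Deposited FPKM values served only to derive gene lengths, and the deposited normalized signal columns were not used. Its columns of the authors' own comparisons (fold changes and p-values) were not used.

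Of 24060 genes, 14354 passed filterByExpr (minimum count 10, minimum total 15). edgeR 4.0.16 (R 4.3.3) fitted 4 group means to all libraries with TMM scaling and quasi-likelihood tests, Benjamini-Hochberg adjusted over all genes tested at a threshold of 0.1. CPM are counts per 1000000 of the TMM-scaled total of the filtered genes. Ratios use a prior count of 2, folds against 0 use a floor of 3 counts, and they cover counting error only. IP and input with the same number come from 1 animal. The correlation of their deviations was 0.0064 to 0.19. Between replicates of a group, the chi-square per degree of freedom was at least 119. This is a ratio of variances pooled over genes, not a value for single genes of low count. Alternatives were RLE scaling, no filter, DESeq2 1.42.0, a prior count of 0.5, Rn45s and Lars2 left out, a replicate block, and each animal left out. The steps were tested on simulated data. The genes and lists were chosen with earlier results of these data known. Named genes are the 10 members, at most 4 per list and comparison by smallest unadjusted p, partners and close copies, and the 5 most alike in profile to Pdgfrb and to Acta2, some of which are not reported here. Pdgfd, Dll4, Jag1, Vtn, Myocd, Kcnj11, Abcc8, Rn45s, Tek, Cldn5, Ttr and overlapping genes were named after their values were seen. Sequences are from RefSeq.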

Additional observations from a re-analysis of the deposited data

How the results depend on the processing

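Members called between HFD IP and CFD IP went from 0 in edgeR to 1 in DESeq2 (Rgs5, log2 fold change 3.65), and stayed at 0 in the other comparisons and settings. Genes called between HFD IP and CFD IP were 8, against 219 with no filter, 872 in DESeq2 and 5 without Rn45s and Lars2, with 1 (without animal 517) to 20 (without 489) when 1 animal was left out. Between IP and input in CFD they were 27, against 312 with no filter, 916 in DESeq2 and 139 with the replicate block, with 2 (without 555) to 52 (without 516). In HFD they were 2, against 79 with no filter, 104 in DESeq2, 0 without Rn45s and Lars2 and 24 with the replicate block, with 0 (without 516) to 35 (without 676). Between inputs they were 0, against 3 with no filter and 55 in DESeq2, with 0 to 1. For the interaction they were 0, against 44 with no filter and 213 in DESeq2, with 0 to 1. The cause was not tested. The replicate block, which pairs the fractions of an animal, called no member. It turned the sign of Abcc9 (1.42) and Notch3 (-6.60) in CFD and of Pdgfrb (-0.32), Acta2 (-1.24) and Myh11 (-1.88) in HFD. Leaving out animal 676 put 2 members (Pdgfrb and Igf2) below input in all remaining animals. The mean log2 ratio of Myh11 in CFD was -3.42 with a prior count of 0.5, against -1.85.

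With 1 animal left out, 182 of 210 fits of single members kept their sign and stayed uncalled, and 28 fits of 19 results turned sign without a call. Between HFD IP and CFD IP these ran from -3.06 to 1.08 for Pdgfrb, -4.09 to 1.08 for Abcc9, -1.25 to 10.4 for Notch3 and -1.14 to 0.63 for Igf2. Between IP and input in CFD they ran from -3.84 to 0.52 for Acta2, -3.03 to 3.82 for Abcc9 and -10.54 to 1.84 for Notch3. In HFD they ran from -1.37 to 1.86 for Pdgfrb, -2.58 to 1.29 for Acta2, -3.77 to 2.05 for Myh11, -0.63 to 1.46 for Notch3 and -2.42 to 0.75 for Igf2. Between inputs they ran from -1.75 to 7.12 for Abcc9, -0.91 to 0.70 for Notch3 and -1.44 to 0.42 for Igf2. For the interaction they ran from -1.07 to 2.16 for Pdgfrb, -6.42 to 0.43 for Abcc9, -1.11 to 11.3 for Notch3 and -1.32 to 1.84 for Igf2. In the other settings 155 of 161 fits kept their sign and their side of the threshold.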
